A study of Mus musculus with 10 samples.

Results

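The tropomodulins, leiomodins and tropomyosins are 3 gene families whose proteins bind along actin filaments or at their slow-growing (pointed) ends. The 10 genes Tmod1, Tmod2, Tmod3, Lmod1, Lmod2, Lmod3, Tpm1, Tpm2, Tpm3 and Tpm4 were taken by name from a table of 48440 genes, and all 10 were found. Their levels were measured by RNA-seq in inner hair cells (IHCs), the sensory cells that drive most fibres of the auditory nerve, and outer hair cells (OHCs), which boost sound-evoked motion by changing their length. IHCs gave 2 libraries and OHCs gave 3, each of about 1000 cells picked by suction pipette from cochleae of untreated adult CBA/J mice, an inbred strain with good hearing. The labels give an age of 28 to 32 days. Cells of several mice were pooled in each library and no source says which mice went into which, so that the p-values rest on differences among these libraries alone, which may be technical. Each library was sequenced in 2 lanes, and its lanes were averaged.

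Values are RPKM, reads scaled to exon length and to the mapped reads of the lane, so that levels of different genes can be set side by side per length. A log2 difference is IHC minus OHC on the log2(RPKM + 0.1) scale, from a limma fit over the 16462 genes that reached 0.1 RPKM in 2 or more libraries, and an adjusted p is that of limma after Benjamini-Hochberg adjustment over all of them. A fold is the ratio of mean RPKM. The reads that served as divisor, inferred from the values, numbered 19987044 to 23083994 per library. For some genes, the second lanes of IHC replicates 1 and 2 and of OHC replicate 1 stood apart from the 7 remaining lanes. Among the 10 genes this touched Tmod1. In picked cells pooled in bulk, fewer expressing cells and less RNA per cell cannot be told apart.

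An actin filament grows and shrinks mainly at its fast-growing (barbed) end, and tropomodulins cap the opposite, pointed end, where they also hold the end of the tropomyosin strand. Leiomodins are built on the same plan but start new filaments or let the pointed end lengthen. Tropomyosins are coiled coils that lie head to tail along the filament and govern which other proteins can bind it, and their genes each make many isoforms, which a value per gene does not separate. In hair cells actin fills the stereocilia, the sensory projections, forms the cuticular plate in which they are anchored, and in OHCs lines the lateral wall together with spectrin.

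A stretch that tropomodulins and leiomodins have in common is shown here, since reads from it have to be told apart for the levels of these genes to be compared. It holds 45 bases of Tmod1, Tmod2, Tmod3, Lmod2 and Lmod3 from the GENCODE M21 transcripts of GRCm38, read in the sense direction, and capitals mark the 25 positions at which these 5 genes have the same base.
Tmod1 (coding bases 760 to 804): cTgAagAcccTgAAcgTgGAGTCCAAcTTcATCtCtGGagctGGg
Tmod2 (coding bases 766 to 810): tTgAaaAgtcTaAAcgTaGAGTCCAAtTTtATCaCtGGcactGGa
Tmod3 (coding bases 769 to 813): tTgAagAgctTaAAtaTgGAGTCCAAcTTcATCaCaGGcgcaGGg
Lmod2 (coding bases 829 to 873): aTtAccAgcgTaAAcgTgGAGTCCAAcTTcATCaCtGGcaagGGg
Lmod3 (coding bases 967 to 1011): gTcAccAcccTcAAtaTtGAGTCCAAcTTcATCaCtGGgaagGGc
In the longest coding sequence of each gene, the longest run of identical bases between a tropomodulin and a leiomodin was 21 bases (Tmod1 and Lmod2). This is much shorter than the reads of 100 bases.

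Of the 10 genes, 5 were higher in IHCs (Tmod1, Tmod2, Tmod3, Tpm3 and Tpm4), 4 were higher in OHCs (Lmod1, Lmod3, Tpm1 and Tpm2), and Lmod2 had no reads in any library. Of all genes tested, 34.4% passed the test with a higher level in IHCs and 34.4% with a higher level in OHCs. IHC and OHC libraries did not overlap for any of the 9 genes with reads. Libraries did not overlap for 39.5% of all genes tested with IHCs higher and for 39.7% with OHCs higher. Passing the test was therefore common in the whole table, and the sizes of the differences say more about these genes than their number. A log2 difference of at least 1 together with an adjusted p under 0.05 was reached by Tmod1 toward IHCs, against 11.1% of all genes tested, and by Lmod3 and Tpm2 toward OHCs, against 16.0%. Tmod1 lies close to this limit and fell below it under 5 alternatives, at 0.82 to 0.90 (quantile normalization, 3 other sets of lanes, and its reads added to those of an overlapping gene), and Tpm2 was at -0.48 with a pseudocount of 1. Tpm2 passed the filter on low values only through its OHC libraries.

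**Figure D1:**
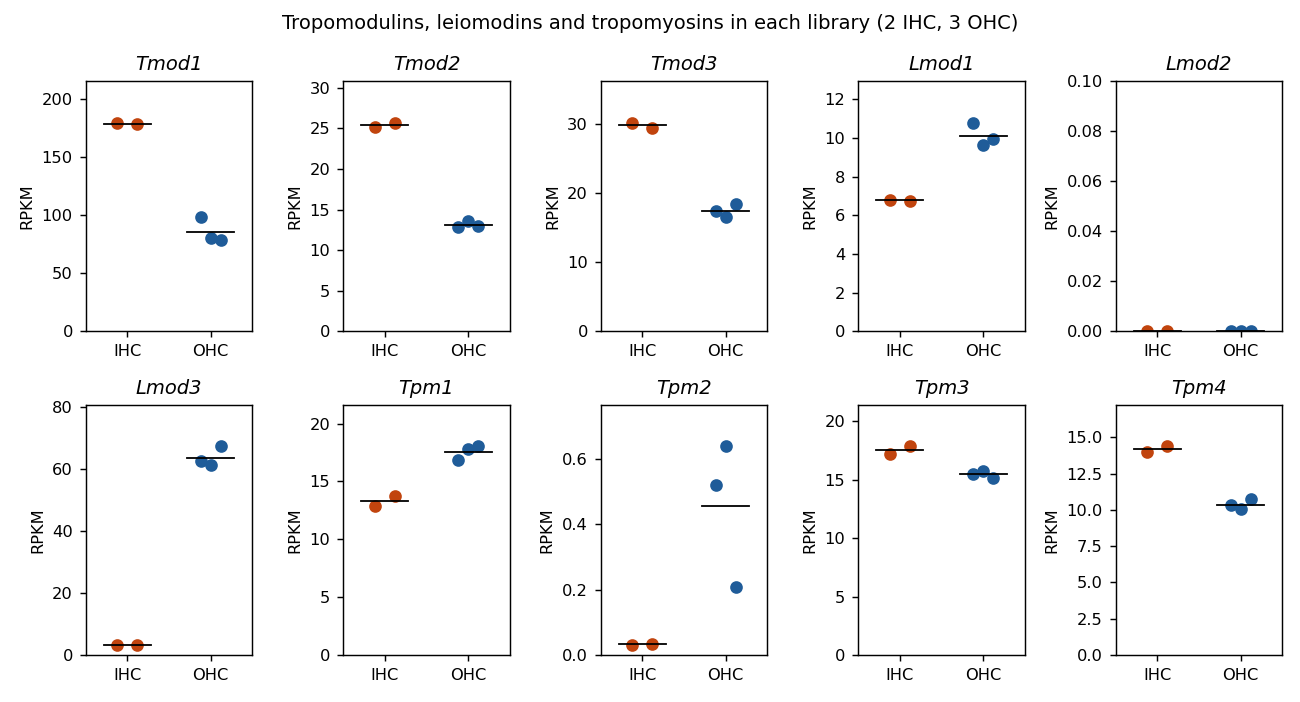
Level of each of the 10 genes in RPKM (vertical axes, each from 0 and on its own scale) in the IHC libraries (orange, n = 2, left) and the OHC libraries (blue, n = 3, right), with 1 point per library and a black line at the mean. The tropomodulins lie higher in IHCs, Lmod3 lies at 3.06 and 3.19 RPKM in IHCs against 61.1 to 67.2 RPKM in OHCs, and Lmod2 is at 0 throughout.

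The tropomodulins were the most abundant of the families, and all 3 were higher in IHCs. Tmod1 (ENSMUSG00000028328, chromosome 4 of GRCm38 from 46038935 to 46116032, plus strand) encodes the tropomodulin known from the membrane skeleton of red blood cells, the lens and heart muscle. It had 179 and 178 RPKM in IHC replicates 1 and 2, against 97.9, 80.2 and 78.1 RPKM in OHC replicates 1, 2 and 3. IHC libraries were close to each other, and OHC replicate 1 stood above the other OHC libraries. The mean was 179 ± 0.956 RPKM (SD, n = 2) in IHCs and 85.4 ± 10.9 RPKM (SD, n = 3) in OHCs, a ratio of 2.09, and the log2 difference was 1.07 (standard error, SE, 0.0995, adjusted p = 2.48e-04). Tmod1 stood at the 98.2 percentile of all genes tested in IHCs and at the 96.1 percentile in OHCs.

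Tmod2 (ENSMUSG00000032186) and Tmod3 (ENSMUSG00000058587) lie side by side on the minus strand of chromosome 9, Tmod2 from 75565621 to 75611325 and Tmod3 from 75497707 to 75559657, with 5963 bases between them. Tmod2 is known as the tropomodulin of neurons. It had 25.2 and 25.7 RPKM in the IHC libraries, against 12.8, 13.6 and 12.9 RPKM in the OHC libraries. The spread within each cell type was small beside the gap between them, with a ratio of means of 1.94 and a log2 difference of 0.95 (SE 0.0419, adjusted p = 1.37e-05). Tmod3, which is found in most tissues, had 30.2 and 29.4 RPKM in IHCs, against 17.4, 16.6 and 18.4 RPKM in OHCs. Its ratio of means was 1.71 and its log2 difference 0.77 (SE 0.0521, adjusted p = 7.03e-05). The lengths that turn the values back into whole reads were 10391 bases for Tmod2 and 3578 bases for Tmod3, whereas their annotated exons cover 11683 and 11151 bases. The level of Tmod3 beside that of other genes depends on that length, whereas the ratio between cell types does not.

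The size of the Tmod1 difference depended on which lanes were read. Tmod1 overlaps Tstd2 (chromosome 4 from 46114746 to 46138694, minus strand), a thiosulfate sulfurtransferase-like gene that runs toward it from the opposite strand. Their exons share 1287 bases, from 46114746 to 46116032, within the 3′ untranslated regions of both, and 31.9% of the 31-base words of Tmod1 also occur in Tstd2. Reads of the shared part cannot be assigned without strand, and no source states a strand setting for the counting.

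In the second lanes of IHC replicate 1, IHC replicate 2 and OHC replicate 1, Tmod1 stood 1.40 to 1.44 times above the first lane of the same library, whereas in OHC replicates 2 and 3 the ratio was 0.962 and 1.003. Tstd2 moved the other way in the same lanes. IHC replicate 1 had 6483 Tmod1 reads and 2733 Tstd2 reads in its first lane, and 9279 and 145 in its second. OHC replicate 1 had 3671 Tmod1 reads and 1871 Tstd2 reads in its first lane, and 5247 and 197 in its second. Reads of both genes together hardly differed between lanes. They came to 838 and 834 RPM (reads per 1000000 reads) in the IHC libraries, against 476, 474 and 467 RPM in the OHC libraries, a ratio of 1.77. The other members with at least 144 reads in every library had second-to-first ratios of 0.881 to 1.25.

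**Figure D2:**
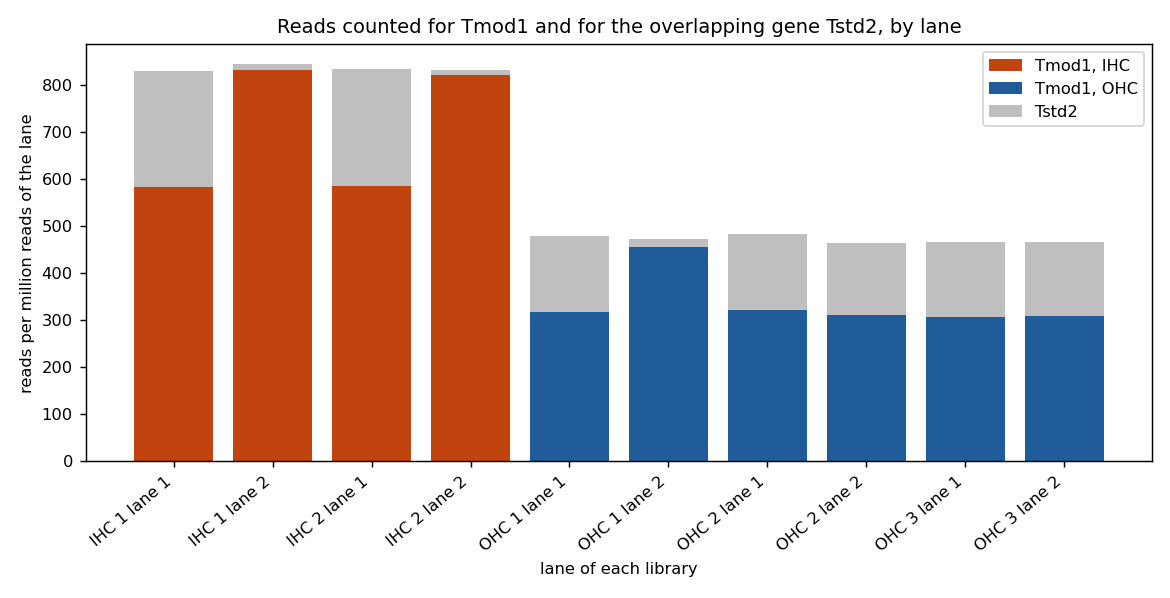
Reads counted for Tmod1 (orange in IHCs, blue in OHCs) and for the overlapping gene Tstd2 (grey), stacked, in reads per 1000000 reads of the lane (RPM, vertical axis), in each of the 10 lanes. In the second lanes of IHC 1, IHC 2 and OHC 1 nearly all reads of the pair were counted for Tmod1 (96.4% to 98.6%), against 66.0% to 70.3% in the other lanes, while the height of the whole bar stayed between 830 and 845 in IHCs and between 464 and 483 in OHCs.

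With the 7 remaining lanes, Tmod1 had 148 and 148 RPKM in IHCs, against a library mean of 79.6 RPKM in OHCs (library values 78.1 to 80.4), and the log2 difference was 0.90 (adjusted p = 9.73e-07 with limma). No label sets these lanes apart, so the set of 7 was drawn from the values too. With those 3 second lanes alone, an alternative chosen after seeing the data, it was 211 and 208 RPKM in IHCs against 116 RPKM in the single OHC library, with a log2 difference of 0.86. With the reads of Tmod1 and Tstd2 added, also chosen after seeing the data, the log2 difference was 0.82 (adjusted p = 3.25e-06). Within each of these sets of lanes Tmod1 was thus higher in IHCs. Among the 7 remaining lanes OHC replicate 1, at 80.4 RPKM, did not stand apart from the other OHC libraries.

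Summed over the 3 genes, the tropomodulins came to 235 and 233 RPKM in IHCs, against 128, 110 and 109 RPKM in OHCs. The means were 234 ± 1.13 RPKM (SD, n = 2) in IHCs and 116 ± 10.5 RPKM (SD, n = 3) in OHCs, a ratio of 2.02 (exact permutation test, two-sided, p = 0.1, the smallest that 10 splits of 5 libraries allow). Without Tmod1 the sum was 55.4 and 55.1 RPKM in IHCs, against 30.2, 30.2 and 31.4 RPKM in OHCs, a ratio of 1.81. Tmod1 made up most of the sum in both cell types. It held 76.4% in IHCs and 73.5% in OHCs, Tmod3 held 12.7% in IHCs and 15.2% in OHCs, and Tmod2 held 10.9% in IHCs and 11.4% in OHCs. These shares depend on the length behind the Tmod3 values. Among the 7 remaining lanes Tmod1 held 72.8% of the sum in IHCs and 72.2% in OHCs. The log2 ratio of the tropomodulin sums was 0.88 with those lanes, against 1.01 with all lanes.

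Markers of 2 other cell types moved with the tropomodulins or against them. Of 5 genes of supporting cells, the cells that surround hair cells, 4 were higher in IHCs and Fgfr3, a fibroblast growth factor receptor, was higher in OHCs. Their summed level was 880 to 881 RPKM in IHCs and 554 to 561 RPKM in OHCs, and the strongest, the gap junction gene Gjb6, had 447 RPKM in IHCs and 393 RPKM in OHCs. Red blood cell genes, which accompany Tmod1 in that cell type, moved the other way. Their 8 genes summed to 343 to 356 RPKM in IHCs and 1553 to 1667 RPKM in OHCs, 7 of 7 tested were higher in OHCs, and in IHCs Slc4a1 and Epb42 had no reads. The part of either cell type in the tropomodulin levels was not tested. Beside these marker counts, 34.4% of all genes tested passed the test toward IHCs and 34.4% toward OHCs.

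Tmod4 (ENSMUSG00000005628), the remaining tropomodulin of the mouse and the main one of skeletal muscle, lay outside the 10 genes and was the tropomodulin that went the other way. It had 0.969 and 1.11 RPKM in IHCs, against 2.88, 2.61 and 2.62 RPKM in OHCs, with a log2 difference of -1.30 (SE 0.104, adjusted p = 1.39e-04). These values rest on 37 to 39 reads per library in IHCs and 90 to 114 in OHCs.

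Lmod3 had the largest difference of the 10 genes. Lmod3 (ENSMUSG00000044086, chromosome 6 from 97238534 to 97252759, minus strand) encodes leiomodin 3, which is known from the thin filaments of skeletal muscle and whose loss causes a nemaline myopathy in humans. It had 3.06 and 3.19 RPKM in the IHC libraries, against 62.4, 61.1 and 67.2 RPKM in the OHC libraries. These stand for 151 and 144 reads in IHCs and 3188, 2844 and 2975 reads in OHCs. All OHC libraries were high and both IHC libraries low. The means were 3.13 ± 0.0899 RPKM (SD, n = 2) in IHCs and 63.6 ± 3.21 RPKM (SD, n = 3) in OHCs, a level 20.3 times higher in OHCs, with a log2 difference of -4.30 (SE 0.0524, adjusted p = 1.92e-07). Lmod3 stood at the 51.3 percentile of all genes tested in IHCs and at the 94.5 percentile in OHCs, where only Tmod1 among the 10 genes was higher. Across the alternatives tried its log2 difference lay between -4.43 and -3.97.

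Lmod1 (ENSMUSG00000048096, chromosome 1 from 135324807 to 135368065, plus strand), known as the leiomodin of smooth muscle, was higher in OHCs by a smaller margin. It had 6.79 and 6.75 RPKM in IHCs, against 10.8, 9.61 and 9.92 RPKM in OHCs, a level 1.49 times higher in OHCs with a log2 difference of -0.57 (SE 0.0616, adjusted p = 4.62e-04). Lmod2 (ENSMUSG00000029683, chromosome 6 from 24597762 to 24605414, plus strand), the leiomodin of heart muscle, had 0 reads in each of the 10 lanes. For its length of 1976 bases, a count of 3 in a library would give 0.0658 to 0.0760 RPKM, so that a level below this could have been missed at this depth. Floors and intervals of this kind cover counting error only, since the reads carried no molecular identifiers and need not be independent molecules.

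The leiomodins together came to 9.85 and 9.94 RPKM in IHCs, against 73.1, 70.7 and 77.1 RPKM in OHCs, a sum 7.44 times higher in OHCs (exact permutation test, two-sided, p = 0.1, the smallest possible). Lmod1 made up 68.4% ± 0.701 of the sum in IHCs (SD, n = 2) and 13.7% ± 0.949 in OHCs (SD, n = 3), and Lmod3 held the remainder, 31.6% in IHCs and 86.3% in OHCs. The leading leiomodin was therefore Lmod1 in each IHC library and Lmod3 in each OHC library. The 4 OHC marker genes also had reads in IHCs and were 9.79 to 57.7 times higher in OHCs. The part of OHC transcripts in the Lmod3 level of the IHC libraries was not tested. Set against the tropomodulins of the same library, the leiomodin sum was 0.0419 and 0.0426 times as large in IHCs, and 0.571, 0.640 and 0.704 times as large in OHCs. The lane shift of Tmod1 enters these ratios.

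**Figure D3:**
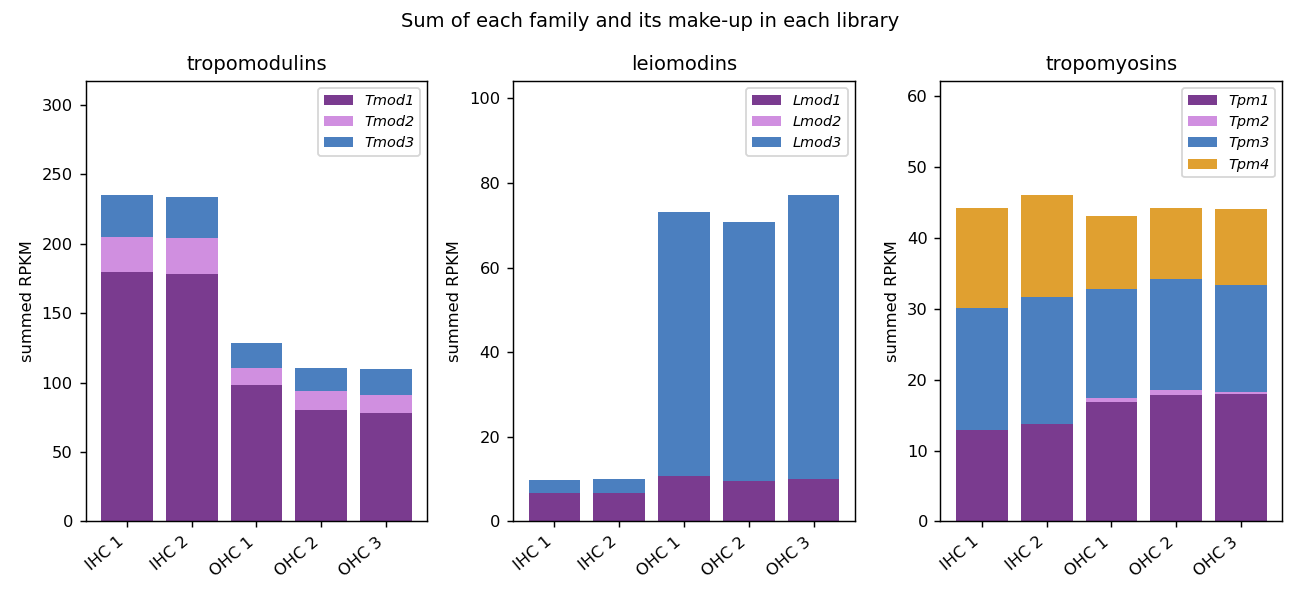
Summed RPKM (vertical axes, from 0) of the tropomodulins, leiomodins and tropomyosins in each library, IHC libraries left of OHC libraries, with colours for the genes of a family. The tropomodulin sum is larger in IHCs, the leiomodin sum is larger in OHCs and made up mostly of Lmod3 there, and the tropomyosin sum lies between 43.2 and 46.0 RPKM in all 5 libraries.

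Muscle genes were looked at beside the leiomodins, since Lmod3 and Lmod1 are known from muscle. The 8 skeletal muscle markers summed to 1.07 to 1.82 RPKM in IHCs and 6.97 to 8.34 RPKM in OHCs, and of the 5 tested 2 passed toward IHCs and 3 toward OHCs. Most of the OHC sum was Tnnt3, a fast skeletal troponin T, at 0.272 RPKM in IHCs and 6.24 RPKM in OHCs. The myosin heavy chain gene Myh2 and the creatine kinase gene Ckm had no reads in any library, and Myh1 had 1 read in all. Myh4, another myosin heavy chain gene, had 0 reads in IHCs and 64 in OHCs. The skeletal actin gene Acta1 had 0 reads in IHCs and 47 in OHCs. The 8 smooth muscle and pericyte markers summed to 0.407 to 0.496 RPKM in IHCs and 1.72 to 1.94 RPKM in OHCs. Of the 5 tested, 4 passed toward OHCs and 0 toward IHCs. Tagln had the highest mean over all libraries, with 0.177 RPKM in IHCs and 0.617 RPKM in OHCs. Pdgfrb was the highest in OHCs, with 0.00821 RPKM in IHCs and 0.696 RPKM in OHCs. Cnn1 and Cspg4 had no reads. No muscle cells or pericytes were measured, so that these sums cannot be turned into a share of the Lmod3 or Lmod1 level. Most neutrophil and fibrocyte genes were also higher in OHCs, while 1 gene of each of these lists passed toward IHCs. The 6 neutrophil markers summed to 0.828 to 1.15 RPKM in IHCs and 89.1 to 90.8 RPKM in OHCs, with 5 of 6 higher in OHCs and S100a8 the strongest at 27.5 RPKM there. The 6 fibrocyte markers summed to 162 to 164 RPKM in IHCs and 355 to 384 RPKM in OHCs, with 4 of 6 higher in OHCs and Otos the strongest at 90.7 RPKM in IHCs and 232 RPKM in OHCs. The 4 Schwann cell markers summed to 2.30 to 2.35 RPKM in IHCs and 3.68 to 4.04 RPKM in OHCs, with 2 of 4 higher in OHCs and Mbp the strongest at 1.88 RPKM there. The part of these cell types in the leiomodin levels was not tested. Beside these marker counts, 34.4% of all genes tested passed the test toward IHCs and 34.4% toward OHCs.

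The tropomyosin sums overlapped between the cell types, while single genes differed in both directions. Tpm1 (ENSMUSG00000032366, chromosome 9 from 67022590 to 67049406, minus strand) and Tpm2 (ENSMUSG00000028464, chromosome 4 from 43514711 to 43523765, minus strand) encode the tropomyosins called alpha and beta in muscle. Tpm3 (ENSMUSG00000027940, chromosome 3 from 90072649 to 90100902, plus strand) encodes that of slow muscle and several cytoskeletal isoforms, and Tpm4 (ENSMUSG00000031799, chromosome 8 from 72134975 to 72153142, plus strand) encodes a cytoskeletal tropomyosin. The start of the coding sequence of Tpm1 and Tpm2 is shown with the run they share there, 35 bases, in capitals. It is the longest of any pair of the 10 genes when the longest coding sequence of each is compared.
Tpm1 (coding bases 1 to 60): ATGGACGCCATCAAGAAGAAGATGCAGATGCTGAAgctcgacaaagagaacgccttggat
Tpm2 (coding bases 1 to 60): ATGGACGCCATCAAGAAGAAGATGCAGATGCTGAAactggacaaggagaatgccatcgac
Tpm3 and Tpm4 shared a run of 32 bases farther along, in capitals in the following stretches.
Tpm3 (coding bases 335 to 394): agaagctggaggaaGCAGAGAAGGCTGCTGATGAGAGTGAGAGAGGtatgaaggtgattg
Tpm4 (coding bases 224 to 283): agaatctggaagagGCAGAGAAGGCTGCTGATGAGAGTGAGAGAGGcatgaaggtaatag
Both runs are shorter than a read of 100 bases. Between family members, 0.134% of the 31-base words of Tpm1 also occur in Tpm2 and 0.299% of those of Tpm2 in Tpm1.

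Tpm1 was higher in OHCs. It had 12.9 and 13.8 RPKM in IHCs, against 16.9, 17.8 and 18.0 RPKM in OHCs, a level 1.32 times higher in OHCs with a log2 difference of -0.40 (SE 0.0501, adjusted p = 8.94e-04). In the 3 second lanes that stood apart, where OHCs have a single library, the log2 difference was -0.26.

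Tpm4 was higher in IHCs. It had 14.0 and 14.4 RPKM in IHCs, against 10.3, 10.1 and 10.7 RPKM in OHCs, a ratio of 1.37 with a log2 difference of 0.45 (SE 0.0450, adjusted p = 3.32e-04). Of its 31-base words 19.97% occur in other genes, mostly in the pseudogene Gm7809 and the antisense gene Gm26586, both of which had no reads in any library.

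Tpm3 had the smallest difference of the genes that passed the test. It had 17.2 and 17.9 RPKM in IHCs, against 15.5, 15.7 and 15.2 RPKM in OHCs, a ratio of 1.13 with a log2 difference of 0.18 (SE 0.0386, adjusted p = 7.72e-03). The call was lost after quantile normalization, with a log2 difference of 0.07 (adjusted p = 0.166), and without IHC replicate 2, with 0.15 (adjusted p = 0.0596). In the 3 second lanes that stood apart the log2 difference was 0.21, with a single OHC library, so that the adjusted p of 0.0548 from limma there rests on the spread between the IHC libraries alone. Over all alternatives the adjusted p of Tpm3 ran between 2.57e-03 and 0.166. Reads that fell in listed genes made up 92.8% of the reads of a lane in IHCs and 86.6% to 86.8% in OHCs, a gap in the same direction, and its part in this small difference was not tested. Of the 31-base words of Tpm3 27.0% occur in other genes, nearly all of these in the pseudogene Tpm3-rs7, which had 7 and 8 reads in the IHC libraries and 5, 1 and 1 reads in the OHC libraries.

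Tpm2 was low in both cell types and close to the limit of detection in IHCs. It had 0.0308 and 0.0337 RPKM in IHCs, against 0.521, 0.639 and 0.207 RPKM in OHCs. These values stand for 2 reads in each IHC library and 35, 39 and 12 reads in the OHC libraries. OHC replicate 3 stood below the other OHC libraries. Pooled over libraries there were 4 reads in IHCs and 86 in OHCs, a rate per read 14.3 times higher in OHCs with a 95% exact (Clopper-Pearson) interval of 5.39 to 53.7 times, which covers counting error only. The log2 difference of -1.98 (SE 0.398, adjusted p = 5.95e-03) depended on the pseudocount, at -3.32 with 0.01 and -0.48 with 1. Voom on the recovered reads gave -3.40, and the gene was not tested where at least 1 RPKM was required.

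In sum the tropomyosins came to 44.2 and 46.0 RPKM in IHCs, against 43.2, 44.3 and 44.1 RPKM in OHCs, which overlap. The means were 45.1 ± 1.32 RPKM (SD, n = 2) in IHCs and 43.9 ± 0.607 RPKM (SD, n = 3) in OHCs, with p = 0.2 in the exact permutation test (two-sided), whose smallest p here is 0.1, so that it could not call any of the family sums. Tpm3 held 38.9% of the sum in IHCs and 35.3% in OHCs, Tpm4 held 31.5% in IHCs and 23.6% in OHCs, and Tpm1 held 29.6% in IHCs and 40.1% in OHCs. Tpm3 was therefore the leading tropomyosin in each IHC library and Tpm1 in each OHC library. Tropomodulin RPKM per tropomyosin RPKM was 5.32 and 5.07 in IHCs, against 2.97, 2.49 and 2.48 in OHCs. All lanes entered these ratios, and with them the lane shift of Tmod1.

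Ordered by mean level in IHCs, Tmod1 (179 RPKM) was followed by Tmod3 (29.8), Tmod2 (25.4), Tpm3 (17.5), Tpm4 (14.2), Tpm1 (13.3), Lmod1 (6.77), Lmod3 (3.13) and Tpm2 (0.0323 RPKM), with Lmod2 at 0. Neighbours in this order did not overlap between libraries, although Tpm4 at 14.0 and 14.4 RPKM and Tpm1 at 12.9 and 13.8 RPKM were close. In OHCs the order was Tmod1 (85.4 RPKM), Lmod3 (63.6), Tpm1 (17.6), Tmod3 (17.5), Tpm3 (15.5), Tmod2 (13.1), Tpm4 (10.4), Lmod1 (10.1) and Tpm2 (0.456 RPKM), with Lmod2 at 0. The neighbours Tpm1 and Tmod3 overlapped between libraries there, and so did Tpm4 and Lmod1. The place of Tmod3 in both orders depends on the 3578 bases behind its values, where its annotated exons cover 11151.

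**Figure D4:**
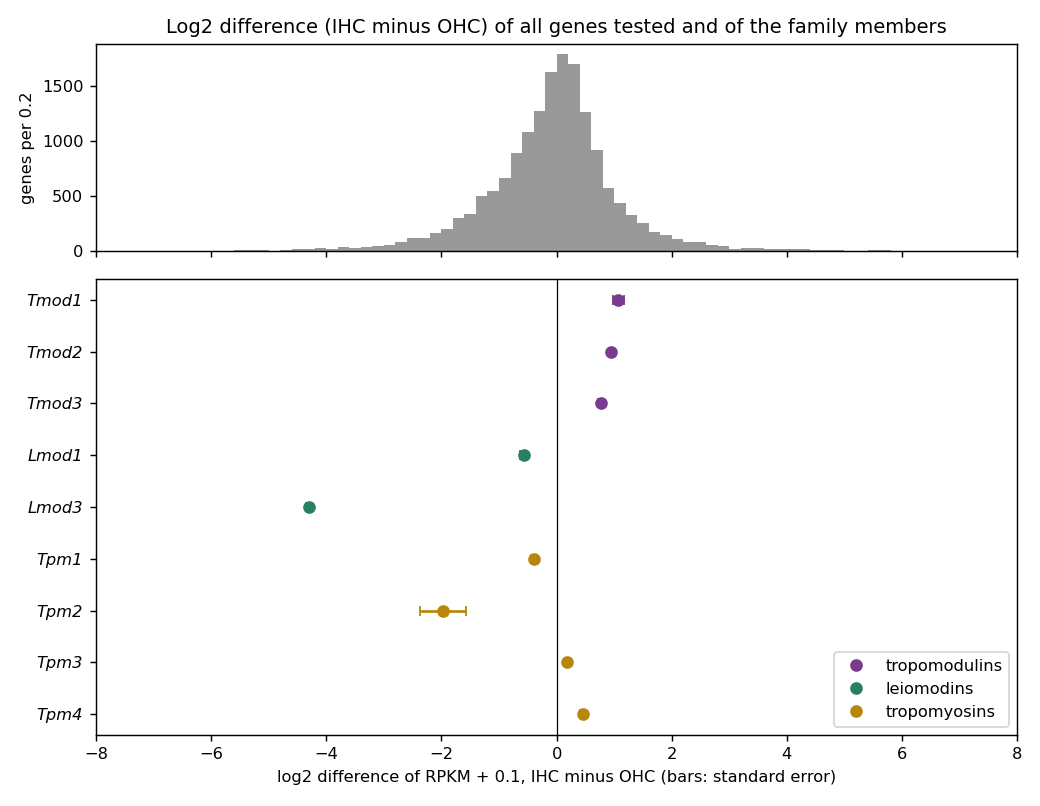
Upper panel, number of genes (vertical axis) per log2 difference of RPKM + 0.1, IHC minus OHC, for all 16462 genes tested, with values beyond the axis placed in the end bins. Lower panel, the log2 difference of the 9 genes with reads on the same horizontal axis, with bars for the standard error and colours for the family. Tropomodulins lie at 0.77 to 1.07, Lmod3 lies at -4.30, and the tropomyosins lie on both sides of 0.

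The genes whose pattern over the 5 libraries was most like that of a member were found by the distance between log2(RPKM + 0.1) profiles, each centred on its own mean, among the 11700 genes tested whose mean reached 1 RPKM in the cell type with more. This was done for the 3 members with a log2 difference of at least 1 in size. Nearest to Lmod3 were Sh2d4a (distance 0.111, 2.48 RPKM in IHCs and 49.7 RPKM in OHCs), 4930558C23Rik (distance 0.120) and Strip2 (distance 0.141, 5.87 RPKM in IHCs and 115 RPKM in OHCs). Nearest to Tmod1 were Gm7467 (distance 0.0814), Chchd2 (distance 0.0992, 418 RPKM in IHCs and 211 RPKM in OHCs) and Rpl39 (distance 0.101). Chchd2 had second-to-first lane ratios of 1.40, 1.40 and 1.40 in IHC 1, IHC 2 and OHC 1, as Tmod1 did, and 0.973 and 0.985 in OHC 2 and OHC 3. Nearest to Tpm2 were Trmt44_1 (distance 0.511), Gm44293 (0.539) and Tmem74b (0.604), all farther away than the neighbours of the other genes. Likeness over 5 libraries mostly reflects the difference between the cell types.

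The partners of these proteins were read from lists chosen with earlier results of these data known, beside a median log2 difference of -0.0053 over all genes tested, and list medians count all tested genes of a list. The counts of each list stand beside 34.4% of all genes tested that passed the test toward IHCs and 34.4% toward OHCs. Of the 6 actin genes, 2 passed the test toward IHCs and 2 toward OHCs, with a median of -0.61. This median is -0.43 when Acta1 and Acta2, which had no reads in IHCs, are set to the floor of 3 reads per library. The cytoplasmic actins carried nearly all of the level. Actg1, gamma-actin, had 387 ± 4.45 RPKM in IHCs (SD, n = 2) and 265 ± 0.927 RPKM in OHCs (SD, n = 3), a log2 difference of 0.55 (adjusted p = 1.29e-05 with limma), and Actb, beta-actin, had 27.5 RPKM in IHCs and 25.1 RPKM in OHCs with a log2 difference of 0.14 (adjusted p = 0.0169).

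Of 22 regulators of filament ends and turnover, 21 were tested, 11 passed the test toward IHCs and 6 toward OHCs, with a median of 0.36. Gsn, which encodes the severing and barbed-end capping protein gelsolin, had the largest difference and the highest level in IHCs but not in OHCs, 484 ± 7.51 RPKM in IHCs (SD, n = 2) and 30.9 ± 0.895 RPKM in OHCs (SD, n = 3), with a log2 difference of 3.96 (adjusted p = 8.02e-08). The filament nucleator gene Spire2 followed with 17.3 RPKM in IHCs and 6.86 RPKM in OHCs (log2 difference 1.32, adjusted p = 7.20e-06). The other direction was led by Scin, which encodes the gelsolin relative scinderin, with 0.429 RPKM in IHCs and 1.11 RPKM in OHCs (log2 difference -1.19, adjusted p = 2.28e-03), and by Eps8, a stereocilia tip protein gene, with 6.09 RPKM in IHCs and 9.91 RPKM in OHCs (log2 difference -0.69, adjusted p = 6.73e-04).

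Of 15 partners of tropomyosin on the thin filament, 10 were tested, 3 passed the test toward IHCs and 5 toward OHCs, with a median of -0.64. Cnn3, an actin-binding calponin gene, had the highest level, 174 RPKM in IHCs and 147 RPKM in OHCs (log2 difference 0.25, adjusted p = 6.78e-04). Nebl, which encodes nebulette, a relative of nebulin, had 19.0 RPKM in IHCs and 11.7 RPKM in OHCs (log2 difference 0.70, adjusted p = 7.00e-05). The troponin T genes were low and went different ways. Tnnt1 had 1.25 RPKM in IHCs and 0.300 RPKM in OHCs (adjusted p = 3.10e-04), Tnnt2 had 1.06 RPKM in IHCs and 4.10 RPKM in OHCs (adjusted p = 1.38e-05), and Tnnt3 had a log2 difference of -4.18 (adjusted p = 9.71e-05).

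Of 13 genes of the spectrin-based membrane skeleton, in which tropomodulin caps short actin filaments in red blood cells, 11 were tested, 3 passed the test toward IHCs and 7 toward OHCs, with a median of -0.32. Sptb, the beta-spectrin gene of red blood cells, had 3.61 ± 0.174 RPKM in IHCs (SD, n = 2) and 10.6 ± 0.250 RPKM in OHCs (SD, n = 3), with a log2 difference of -1.53 (adjusted p = 6.69e-06). Epb41l2, a protein 4.1 gene, had 2.21 RPKM in IHCs and 0.619 RPKM in OHCs (log2 difference 1.69, adjusted p = 2.54e-04), and Dmtn, the dematin gene, had 15.2 RPKM in IHCs and 9.19 RPKM in OHCs (log2 difference 0.72, adjusted p = 1.32e-04). The strongest gene, the adducin gene Add1, had 26.2 RPKM in IHCs and 32.0 RPKM in OHCs (log2 difference -0.29, adjusted p = 5.73e-04). Red blood cell markers were also higher in OHCs, as given beside the tropomodulins, and their part in the level of Sptb was not tested.

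Of 8 genes of non-muscle and smooth muscle myosin II, whose access to actin tropomyosin governs, 3 passed the test toward IHCs and 3 toward OHCs, with a median of 0.012. The light chain gene Myl6 led with 783 ± 33.6 RPKM in IHCs (SD, n = 2) and 336 ± 33.5 RPKM in OHCs (SD, n = 3), a log2 difference of 1.23 (adjusted p = 7.12e-05), and Myl9, a regulatory light chain gene, had a log2 difference of 0.31 (adjusted p = 4.65e-03). Myl12a, another regulatory light chain gene, had 37.9 RPKM in IHCs and 44.9 RPKM in OHCs (log2 difference -0.25, adjusted p = 3.12e-03), and the heavy chain gene Myh10 had 1.90 RPKM in IHCs and 2.27 RPKM in OHCs (log2 difference -0.24, adjusted p = 0.0345).

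Of 9 genes known to regulate or stabilise leiomodins in muscle, 7 were tested, 1 passed the test toward IHCs and 2 toward OHCs, with a median of -0.0032. Mef2d, a transcription factor of muscle and neurons, had 5.04 RPKM in IHCs and 8.82 RPKM in OHCs (log2 difference -0.80, adjusted p = 9.72e-05), and its relative Mef2a had 4.14 RPKM in IHCs and 5.63 RPKM in OHCs (log2 difference -0.43, adjusted p = 2.18e-03). Srf, which encodes serum response factor, had 1.004 RPKM in IHCs and 1.09 RPKM in OHCs (adjusted p = 0.510). Klhl40, whose product is known to stabilise leiomodin 3 in mouse muscle, had 1.11 RPKM in IHCs and 0.763 RPKM in OHCs (adjusted p = 0.0638), and Myocd had no reads. Srf, Klhl40, Myocd, Myh1, Myh4, Pdgfrb, Pou4f3, Fgfr3, Slc26a5 and the genes that share sequence with a member lie outside the naming rule. They were picked after their values were seen.

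**Figure D5:**
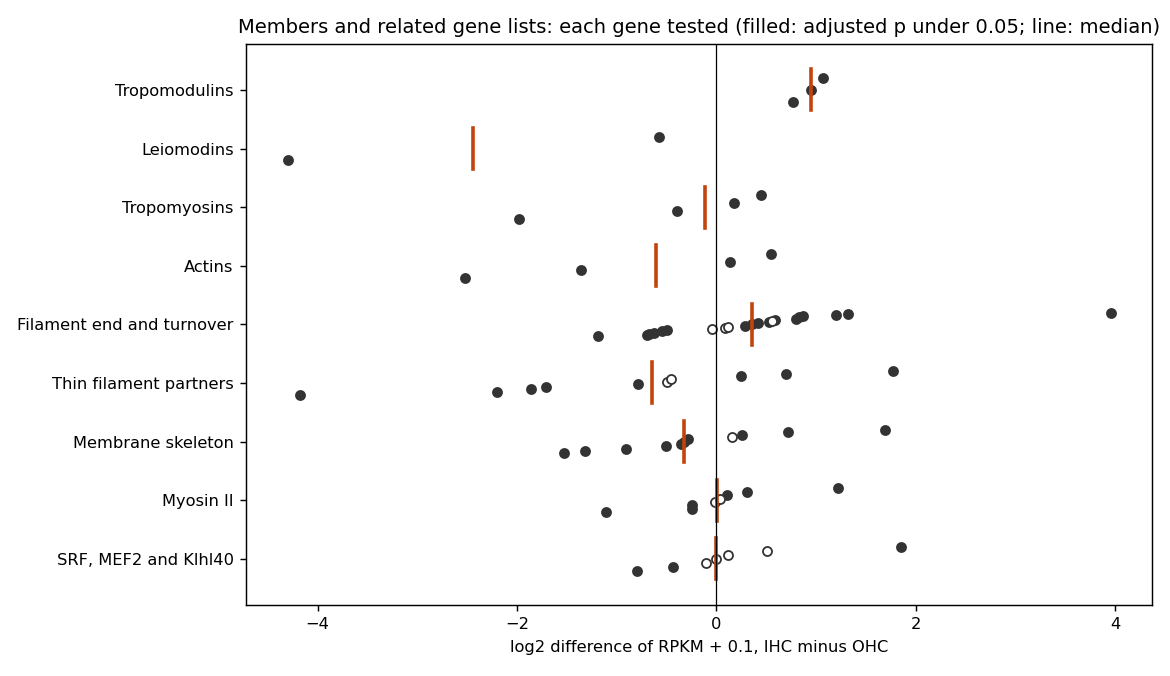
Log2 difference of RPKM + 0.1, IHC minus OHC (horizontal axis), of each tested gene of the 3 families and of 6 related lists (rows), filled where the adjusted p is under 0.05 and open otherwise, with a line at the median of the row. The tropomodulins lie to the right of 0 and the leiomodins to the left, while the other rows have genes on both sides, with Gsn at 3.96 and Tnnt3 at -4.18 as the outermost.

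Markers of the cell types followed the labels. The 4 IHC markers were all higher in IHCs, with Otof, the otoferlin gene, strongest at 210 RPKM in IHCs and 13.8 RPKM in OHCs. The 4 OHC markers were all higher in OHCs, among which Slc26a5, the gene of the OHC motor protein prestin, had 9.51 RPKM in IHCs and 549 RPKM in OHCs. Ocm, the oncomodulin gene and the strongest of them, had 385 RPKM in IHCs and 13011 RPKM in OHCs. The 5 genes of all hair cells had reads in every library, with Pou4f3 the strongest in IHCs at 111 RPKM and Tmc1 the strongest in OHCs at 138 RPKM.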

How the data were processed

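RNA-seq was measured in 10 lanes of 5 libraries (2 of IHCs, 3 of OHCs), and replicate and lane numbers were taken from the labels. The authors made the deposited RPKM values by mapping paired-end reads of 100 bases to GRCm38 with CLC Genomics Workbench (version not given in the sources used here) and counting with HTSeq. The labels name RNeasy and SMARTer Low Input kits where the paper names miRNeasy and SMART-Seq V4, and the ages given also differ slightly. Lanes of a library were averaged, genes under 0.1 RPKM in 4 or more libraries were left out, and log2(RPKM + 0.1) was fitted in R 4.3.3 with limma 3.58.1 (variance trend, no robust prior, 3 residual degrees of freedom, two-sided, Benjamini-Hochberg threshold 0.05). The labels give no day, mouse or batch that could be modelled.

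Reads were recovered from value, exon length and lane total. The lane total was not given and was inferred from the values, as the number that turns low values into whole reads. These totals are below the number of reads per sample that the paper names. No source says whether a read or a read pair was counted as 1. With GENCODE M21 exon lengths 69.8% to 70.6% of the values of a lane came out whole within 0.01 reads, and 5737 of 19961 detected genes needed another length, found from their values. Recovered reads served for floors and read ratios and for voom, which called 5867 genes higher in IHCs and 5740 higher in OHCs, against 5659 and 5663 in the main fit. The inferred totals of the lanes were 9932733 to 11571938 reads. Positions and transcript sequences came from GENCODE M21 (GRCm38). Family sums were compared by exact permutation over libraries in Python 3.11.15 with scipy 1.17.1. The fit was also run on simulated data, with the same spread setting for all genes and few changed genes, unlike these data. The outcome is not reported here.

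The members and gene lists were chosen with earlier results of these data known. Named were the 10 members and Tmod4. Of each related list, the 2 tested genes with the largest difference in each direction among those past the test whose mean reached 1 RPKM in either cell type were named, and so was the gene of highest mean. Also named were the 3 nearest profiles of members that differed by at least 1 on the log2 scale, and the strongest and undetected markers. Alternatives were other pseudocounts, filters, scalings, sets of lanes, variance models, a replicate block, voom, and leaving out each library. Whether the second lanes of IHC 1, IHC 2 and OHC 1 were counted differently by the authors was not tested. Some genes of the lists and some sequences are not reported here.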

Additional observations from a re-analysis of the deposited data

How the results depend on the processing

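Of 21 alternatives, 2 were chosen after seeing the data. The set of 7 remaining lanes was also drawn from the values, since no label sets those lanes apart. Over all 21 alternatives, 187 log2 differences of members were computed. All 187 kept their direction and 184 their side of the threshold, and the exceptions were the 3 for Tpm3 given with its values. The members higher in IHCs numbered 4 or 5 and those higher in OHCs 3 or 4 in each alternative, where Tpm2 was not tested with at least 1 RPKM or with the 3 second lanes that stood apart alone. Without each library in turn, members higher in IHCs numbered 4 to 5 and those higher in OHCs 4 each time, and over all genes tested 4337 to 5753 genes were higher in IHCs and 4632 to 5651 in OHCs. With the 3 second lanes that stood apart alone 3203 genes were higher in OHCs, against 5663, where 3 lanes in place of 5 libraries entered and OHCs had a single library. The log2 ratio of the tropomyosin sums, 0.040, turned to -0.018 with the first lanes alone and to -0.0054 with the 7 remaining lanes, and the cause was not tested. Without each library in turn it ran from 0.0098 to 0.070, that of the tropomodulin sums from 0.97 to 1.09 and that of the leiomodin sums from -2.92 to -2.86. IHC and OHC libraries 1 and 2 share numbers, and the paper took IHCs and OHCs from each mouse, but no source states a pairing. Deviations of same-numbered libraries from their group means correlated at 0.013 and -0.020. With 2 IHC libraries the IHC deviations mirror each other, so these values cannot decide whether the numbers pair the libraries. With the replicate block 5 members were higher in IHCs and 4 in OHCs, with 5060 and 4985 genes over all those tested, and Tpm3 had an adjusted p of 0.0465 with limma. Depth limits Tpm2 and Lmod2. With 2 IHC libraries, fits without an IHC library assume that the lone library varies like the OHC libraries, and the fit of the 3 second lanes that the lone OHC library varies like the IHC libraries.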
